A study of Mus musculus with 3 samples.

Results

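The genes described here are the nuclear genes of oxidative phosphorylation. They were taken as every protein-coding row of the deposited table whose symbol starts with Nduf, Sdha, Sdhb, Sdhc, Sdhd, Uqcr, Cox followed by a digit, or Atp5. The rule found 106 of the 17583 genes in the table, of which 14246 are protein-coding. By their known roles, 77 are structural subunits of the complexes, 21 are assembly factors, 7 are tissue isoforms or paralogues of complex IV subunits, and 1 row, Cox5b-ps, was not placed. Of the 106 genes, 105 had a mean normalized count of at least 10, and 91 had a mean of at least 200. Of all 17583 genes, 9358 had a mean of at least 200.

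Ribosome-associated RNA was sequenced from the hearts of 3 EC-RiboTag mice, which form the only group and are biological replicates. Their genotype is Cdh5-CreERT2;Rpl22tm1.1Psam, on a C57BL/6 background, and Cre had been induced with tamoxifen. Cre recombinase fused to a mutated estrogen receptor is driven by the promoter of Cdh5, a cadherin of endothelial junctions, and switches the Rpl22 allele to a version with a hemagglutinin tag, through which the ribosomes were immunoprecipitated. All 3 mice carry both alleles, and no mouse without them and no input RNA was analysed here. The study describes its mice in general as young adults of both sexes, and the age of the mice sequenced here is not given separately. The sample labels place the hearts at day 7 after coronary ligation, while the methods of the RiboTag experiment mention no infarction. The study writes RZ for the remote zone and describes, for a PCR experiment, EC-RiboTag hearts that were divided into zones after infarction. Whether Rz in the titles of these 3 libraries means that zone, and whether whole hearts were used, was not settled here. The values are normalized counts, that is, read counts divided by a size factor of the library and rounded to whole numbers.

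In oxidative phosphorylation, complex I oxidizes NADH and complex II oxidizes succinate, both pass electrons to ubiquinone, and complex III hands them through cytochrome c to complex IV, which reduces oxygen. Complexes I, III and IV pump protons out of the mitochondrial matrix, and complex V, the ATP synthase, uses the return of these protons to make ATP. The catalytic subunits of complex IV and several membrane subunits of complexes I, III and V are encoded in mitochondrial DNA and are not in the table, because the authors removed mitochondrial reads. All subunits of complex II are nuclear. The cardiac muscle cell is among the cells richest in these complexes, whereas endothelial cells are known to draw much of their ATP from glycolysis.

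The normalized counts summed to between 7149102 and 7268785 per library, and the spacing of low values gave an estimate of 7320000, 6750000 and 7570000 reads for mouse 1, 2 and 3. The 12 endothelial markers, Cdh5, Pecam1 and Kdr among them, had a median of 0.683 ± 0.0256 normalized counts per base of transcript (SD, n = 3). All 12 cardiomyocyte markers were also detected, with means from 587 to 8437 and a median of 0.559 ± 0.0158 per base. None of the markers of either cell type was at 0. The medians were 0.101 per base for 8 fibroblast markers, 0.0385 for 10 markers of pericytes and smooth muscle, and 0.0286 for 8 leukocyte markers. Genes of oxidative phosphorylation are used by all of these cells, so the share of their reads that came from endothelial cells and the share that came from cardiomyocytes cannot be told apart in these libraries. Nor can a small number of cells of a type be told from little RNA per cell.

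Levels of different genes were compared per base, as the normalized count divided by the length of the canonical transcript. The reads were 72 bases long and single-end, and the authors removed duplicates, so each start position on a strand can add about 1 read and the value per base has a ceiling near 1. On this scale the structural subunits lay high in the table. Their median was 0.351, 0.350 and 0.344 per base in mouse 1, 2 and 3, and the median percentile of the 77 subunits among the 14395 genes with a known length and a mean of at least 10 was 88.81. Of all these genes, 3.79% reached 0.5 per base. Among the 105 genes of oxidative phosphorylation, 25 did (23.8%), all of them structural subunits.

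By count alone none of the genes ranked among the first 500 of the table. Their highest rank by mean normalized count was 562, for Atp5a1, the alpha subunit of the catalytic head of the synthase, with 1646, 1643 and 1547. A total of 83 of the 106 genes lay between 200 and 700, and the plot of count against transcript length shows them along the upper edge of the cloud for short transcripts. Across the 77 subunits the mean count went with the length of the coding region (Spearman's rho = 0.715, n = 77 genes), whereas across 12957 genes of the table rho was 0.114. For the subunits rho was 0.544 with the length of the shortest transcript that carries a CCDS coding region, and 0.419 with that of the canonical transcript. Their value per base fell with the length of the canonical transcript (rho = -0.58). These correlations are descriptions across genes of the same libraries, and genes are not independent replicates.

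**Figure D1:**
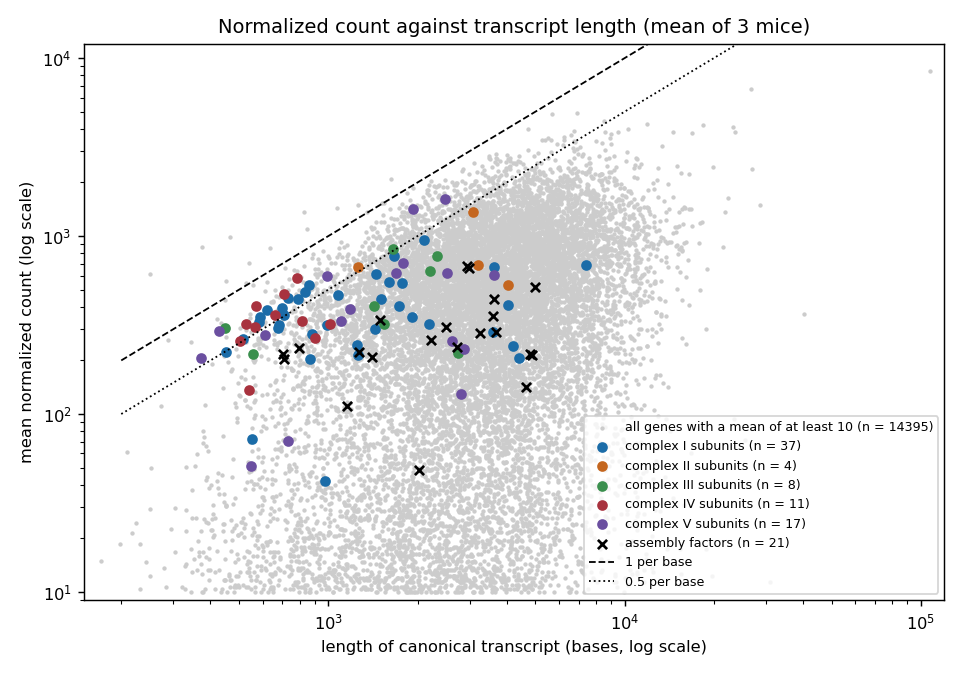
Mean normalized count of 3 mice (vertical, log scale) against the length of the canonical transcript in bases (horizontal, log scale). Grey points are 14395 genes whose mean was 10 or more, coloured points the structural subunits of each complex and crosses the 21 assembly factors, and the broken and dotted lines mark 1 and 0.5 normalized counts per base. No subunit lies above the line of 1, and 25 lie at or above the line of 0.5.

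The 5 complexes were compared by the median over their structural subunits. The medians were 0.337, 0.333 and 0.295 per base for the 37 subunits of complex I in mouse 1, 2 and 3. For the 11 subunits of complex IV they were 0.549, 0.559 and 0.523, above complex I in every mouse and without overlap. Complex II, with 4 subunits, gave 0.342, 0.331 and 0.314. The 8 subunits of complex III gave 0.328, 0.322 and 0.282, and the 17 subunits of complex V gave 0.330, 0.350 and 0.307. Complexes I, II, III and V overlapped in their values, and complex IV was the only complex that stood apart from complex I on this scale. By count complex IV was not higher, with a median of 319 against 352 for complex I. Its transcripts were shorter, with a median of 658 bases against 1079. Across the 77 subunits the value per base fell with the length of the canonical transcript (rho = -0.58). The part of transcript length in the gap was not tested.

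Within each mouse, complex IV was 1.69-fold above complex I (log2 ratio 0.76 ± 0.06, SD, n = 3, exact sign-flip permutation test, two-sided, p = 0.25). The log2 ratio to complex I was 0.03 ± 0.05 for complex II (p = 0.5, exact), -0.05 ± 0.01 for complex III (p = 0.25, exact) and 0.03 ± 0.05 for complex V (p = 0.5, exact). With 3 mice the smallest p of this test is 0.25, so none of the 17 ratios tested here can reach 0.05, and after Benjamini-Hochberg adjustment over the 17 ratios these p-values become 0.283 and 0.5. The order depends on the transcript model. With the joined length of all annotated exons the ratio of complex IV to complex I turned to -0.15 and those of complexes II and III became 0.97 and 0.83, and with the shortest transcript that carries a CCDS coding region it was 0.43 and that of complex II turned to -0.40.

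**Figure D2:**
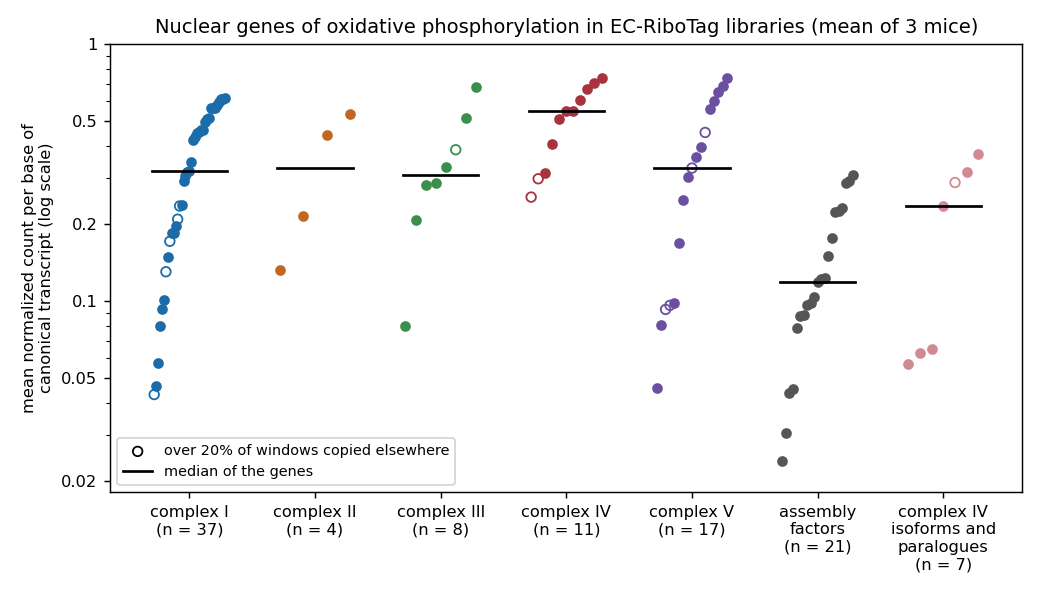
Mean normalized count per base of the canonical transcript over 3 mice (vertical, log scale) for each gene, grouped by complex, assembly factors and complex IV isoforms. Lines mark the median of the gene means, and open circles mark genes of which over 20% of the windows of 72 bases recur exactly at another place of the genome. The 11 subunits of complex IV lie between 0.254 and 0.738, and the 21 assembly factors between 0.0238 and 0.308.

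Within complex I the 7 core subunits, which carry the flavin, the iron-sulfur clusters and part of the quinone site, had a median of 0.449 ± 0.0284 per base, and the 30 accessory subunits 0.319 ± 0.0216 (SD, n = 3). On the shortest CCDS transcript the medians were 0.452 and 0.435, so the gap rests on the transcript model. The 3 highest subunits were accessory. Ndufa8 had 551, 553 and 482 normalized counts and 0.614 ± 0.0470 per base, Ndufb7 had 385, 394 and 366 and 0.613 ± 0.0229 per base, and Ndufb10 had 470, 456 and 419 and 0.612 ± 0.0360 per base. Their means differed by less than their SD. Among the core subunits, Ndufs7 and Ndufs8 of the quinone-reducing arm reached 0.579 and 0.562, and Ndufv1, which binds FMN and takes the electrons from NADH, reached 0.463. Ndufs1, an iron-sulfur subunit of the NADH end, was lowest of the core subunits at 0.185 per base.

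The 3 lowest subunits of complex I were Ndufb4 (41, 48 and 37), Ndufb2 (230, 194 and 192) and Ndufb9 (251, 244 and 225), with 0.0433, 0.0468 and 0.0572 per base. For Ndufb4, exact copies elsewhere in the genome cover 40.0% of the read-length windows, and reads with more than 1 position had been removed. Per window without a copy Ndufb4 was at 0.0778 and still among the 3 lowest. For Ndufb2 the canonical transcript is 4389 bases long while the shortest CCDS transcript gave 0.450 per base, so its place at the bottom rests on the transcript model. Of the 106 genes, 10 had a canonical transcript more than 2 times as long as the shortest CCDS transcript.

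Complex II couples the citric acid cycle to the respiratory chain. Its FAD-binding catalytic subunit Sdha had 1439, 1353 and 1296 normalized counts (0.443 ± 0.0234 per base), and the iron-sulfur subunit Sdhb had 540, 553 and 496 (0.131 ± 0.00741 per base). The membrane anchors Sdhc and Sdhd had 695, 709 and 662 (0.215 ± 0.00752 per base) and 685, 691 and 635 (0.533 ± 0.0244 per base). The 4 subunits, which stand in equal numbers in the protein complex, thus ranged from 0.131 to 0.533 per base. The order was Sdhd, Sdha, Sdhc and Sdhb, and neighbours in it differed by more than their SD between mice. It was also the order of rising canonical length, with 1258, 3073, 3209 and 4030 bases. With the joined length of all annotated exons Sdhc (0.171) lay above Sdha (0.164), and by count Sdha was highest. The part of transcript length in this order was not tested.

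In complex III the highest subunit was the small subunit Uqcr10, with 317, 316 and 278 normalized counts and 0.678 ± 0.0496 per base. It was followed by the core protein Uqcrc1 (885, 878 and 786, and 0.514 ± 0.0334 per base) and by the small subunit Uqcrb (219, 230 and 200, and 0.388 ± 0.0272 per base). The 3 lowest were Uqcr11 (224, 230 and 203), Uqcrq (328, 335 and 293) and the hinge protein Uqcrh (406, 425 and 375), at 0.0798, 0.207 and 0.283 per base. Uqcr11 reached 0.392 per base on its shortest CCDS transcript. Uqcrfs1, the Rieske iron-sulfur subunit and with cytochrome c1 the nuclear part of the redox core, was at 0.287 per base. Cyc1, which encodes cytochrome c1 and lies outside the symbol rule, had 761, 715 and 709 and 0.479 per base.

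In complex IV the 3 highest subunits were Cox4i1 (575, 598 and 560), Cox6a1 (411, 419 and 379) and Cox5a (481, 501 and 437), with 0.738 ± 0.0244, 0.706 ± 0.0371 and 0.666 ± 0.0461 per base. Cox4i1 and Cox6a1, the widely used isoforms of subunits 4 and 6A, were among the genes closest to the ceiling of 1 per base. The 3 lowest were Cox7c (149, 137 and 125), the zinc-binding subunit Cox5b (265, 289 and 253) and Cox7b (324, 338 and 296), at 0.254, 0.299 and 0.315 per base. Exact copies covered 70.1% of the windows of Cox7c and 31.8% of those of Cox5b. Per window without a copy, Cox7c reached 0.979, so its low place does not hold on that scale.

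In complex V the 8 core genes, those of the catalytic head, the central stalk and the rotor ring, had a median of 0.527 ± 0.0215 per base, and the 9 accessory genes 0.167 ± 0.00964 (SD, n = 3). On the shortest CCDS transcript the medians were 0.629 and 0.316, a smaller gap. Atp5b, the catalytic beta subunit, had 1432, 1454 and 1382 normalized counts and 0.739 ± 0.0192 per base. This was level with Cox4i1. On the shortest CCDS transcript Ndufv3 (1.09), Cox14 (0.908), Cox4i1 (0.885), Atp5h (0.798), Atp5g3 (0.774) and Cox6b1 (0.773) lay above Atp5b. Atp5e, the epsilon subunit of the central stalk, had 302, 303 and 275 and 0.684 ± 0.0370 per base, and Atp5a1 had 0.652 ± 0.0228 per base. The counts of Atp5b and Atp5e differ widely and their values per base do not, the transcript of Atp5e being only 429 bases long. The alpha and beta subunits alternate in the catalytic head in equal number, and their values per base were 0.652 and 0.739.

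The 4 genes of the peripheral stalk, which holds the head against rotation, lay between 0.0985 and 0.329 per base. These places rest on the transcript model. On the shortest CCDS transcript Atp5h reached 0.798 and Atp5j 0.515, while Atp5pb was at 0.288 and Atp5o stayed at 0.0985. The lowest genes of the synthase were 3 small membrane subunits, Atp5md (129, 124 and 135), Atp5mpl (240, 238 and 218) and Atp5l (42, 50 and 61), at 0.0460, 0.0806 and 0.0927 per base. Atp5md reached 0.316 on its shortest CCDS transcript, and 62.8% of the windows of Atp5l have an exact copy elsewhere. The inhibitor of the synthase, Atp5if1, listed under its older symbol Atpif1 and so outside the rule, had 307, 322 and 291 normalized counts and 0.462 per base.

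Several subunits of complex IV exist as isoforms encoded by separate genes, and in the adult heart muscle the forms Cox6a2, Cox7a1 and Cox8b are known to replace their widely used counterparts. The reads of 2 isoforms could be confused only where their transcripts match over a whole read. For each isoform the stretch of the coding region most like its counterpart over 72 bases, the read length, is shown because it sets how well a read separates the genes, with the bases that differ between both genes in capitals. Positions are counted from 1 at the A of the start codon, and the genes lie on GRCm39.
Cox4i2, positions 445 to 516, gene at chr2:152596093-152606957, plus strand: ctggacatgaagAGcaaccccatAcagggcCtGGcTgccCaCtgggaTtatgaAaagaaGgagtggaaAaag
Cox4i1, positions 436 to 507, gene at chr8:121394961-121400946, plus strand: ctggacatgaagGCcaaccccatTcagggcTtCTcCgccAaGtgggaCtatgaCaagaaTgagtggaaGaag
Cox6a2, positions 189 to 260, gene at chr7:127804607-127805559, minus strand: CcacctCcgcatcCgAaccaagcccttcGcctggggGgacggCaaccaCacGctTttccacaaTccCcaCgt
Cox6a1, positions 231 to 302, gene at chr5:115483701-115487040, minus strand: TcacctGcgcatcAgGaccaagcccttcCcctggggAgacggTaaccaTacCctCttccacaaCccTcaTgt
Cox7a1, positions 67 to 138, gene at chr7:29883569-29885503, plus strand: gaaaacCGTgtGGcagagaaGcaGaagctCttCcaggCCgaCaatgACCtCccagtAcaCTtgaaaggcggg
Cox7a2, positions 73 to 144, gene at chr9:79662643-79667160, minus strand: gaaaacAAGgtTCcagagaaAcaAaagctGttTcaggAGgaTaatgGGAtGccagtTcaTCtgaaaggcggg
Ndufa4l2, positions 139 to 210, gene at chr10:127350836-127353023, plus strand: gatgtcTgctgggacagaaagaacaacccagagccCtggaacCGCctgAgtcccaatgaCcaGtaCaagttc
Ndufa4, positions 124 to 195, gene at chr6:11900291-11907496, minus strand: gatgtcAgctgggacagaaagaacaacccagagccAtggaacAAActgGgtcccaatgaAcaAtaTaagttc

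In these closest stretches the genes differ at 13 of 72 bases for subunit 4, at 13 for subunit 6A, at 19 for subunit 7A and at 9 for Ndufa4. The longest run of bases shared anywhere between the transcripts was 14, 12, 12 and 28 bases. No untrimmed read of 72 bases can therefore match both genes of any of these pairs without mismatches. The proteins of subunit 4 are identical at 84 of 168 aligned residues, and those of subunits 6A and 7A and of Ndufa4 at 62.1%, 57.5% and 62.2% of the aligned residues.

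Of the forms used in heart muscle, Cox6a2 had 288, 234 and 236 normalized counts against 411, 419 and 379 for Cox6a1, which was higher in every mouse. The log2 ratio per base was -0.93 ± 0.16 (SD, n = 3, exact sign-flip p = 0.25), a 1.91-fold lower level of Cox6a2. Cox7a1 had 171, 138 and 112 normalized counts against 342, 347 and 312 for Cox7a2, but its transcript is shorter, so that the log2 ratio per base was only -0.38 ± 0.24 (exact p = 0.25). With the joined length of all annotated exons this ratio turned to 2.03. Cox8b had 161, 124 and 120 against 318, 315 and 295 for Cox8a, and a log2 ratio per base of -3.14 ± 0.20 (exact p = 0.25). All 3 muscle forms were thus below the widely used form in every mouse on the main scale, by 1.30-fold for subunit 7A and 8.78-fold for subunit 8. For subunit 8 the mean counts were 135 for Cox8b and 309 for Cox8a. Their canonical transcripts are 2149 and 564 bases long, and the part of transcript length in this ratio was not tested.

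Each muscle form was highest in mouse 1, and so were Cox4i2, Cox7a2l and Ndufa4l2, described below. Ckm, the creatine kinase of muscle, had 860, 596 and 656 normalized counts, and Pln, the regulator of the calcium pump of cardiomyocytes, had 1433, 1230 and 1229, also highest in mouse 1. The summed counts of the 12 cardiomyocyte markers were 24317, 24437 and 27457 and did not follow this order, with Ttn at 7379, 7743 and 10190. Of the 12 markers 8 were highest in mouse 1, against 35.9% of all genes and 53 of 105 genes of oxidative phosphorylation (50.5%). Without Ttn and Ryr2, left out after their values were seen, the sums were 13658, 13027 and 12781. The order of these sums depends on that choice. The part of cardiomyocyte RNA in the levels of the muscle forms was not tested.

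Cox4i2 is an isoform of subunit 4 known from lung and from oxygen-sensing cells, pericytes among them. It had 219, 192 and 122 normalized counts against 575, 598 and 560 for Cox4i1, so that it was lower in every mouse (log2 ratio per base -1.70 ± 0.41, SD, n = 3, exact sign-flip p = 0.25, 3.24-fold lower). The log2 ratio was -0.51 with the joined exon length and -2.37 after correction for occupied start positions. It varied more between mice than any other gene of the group with a mean of at least 10, with a coefficient of variation of 28.2%. Ndufa4l2, a paralogue of Ndufa4 that is induced by hypoxia-inducible factor and is also known as a pericyte gene, had 65, 64 and 60 against 317, 333 and 308 for Ndufa4 (log2 ratio -3.20 ± 0.05, exact p = 0.25). Cox4i2 was lowest in mouse 3 by a wide margin, and Ndufa4l2 was nearly the same in all 3 mice. With the joined exon length, in which Ndufa4 measures 8652 bases, the ratio of Ndufa4l2 turned to 0.58.

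The 10 markers of pericytes and smooth muscle summed to 1764, 2235 and 2517 normalized counts, which rose from mouse 1 to mouse 3 while Cox4i2 fell. Of the 10, 1 was lowest in mouse 3, against 34.2% of all genes. The smooth muscle genes Acta2, Myh11 and Tagln, set apart after their values were seen, summed to 201, 452 and 788, and the other 7 markers summed to 1563, 1783 and 1729. Among the 10 markers the pericyte gene Rgs5 had 542, 615 and 505, Kcnj8 had 138, 85 and 119, and the smooth muscle gene Myh11 had 31, 118 and 240. Pdgfrb had 212, 254 and 280, and Notch3 had 145, 216 and 226. None of the 10 was at 0, the lowest being Higd1b with 9, 17 and 17. The part of pericyte or smooth muscle RNA in the level of Cox4i2 was not tested.

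Cox6b2, the testis form of subunit 6B, had 29, 40 and 33 normalized counts against 361, 378 and 348 for Cox6b1 (log2 ratio per base -3.27 ± 0.20, exact sign-flip p = 0.25, and -2.40 with the joined exon length). Cox7a2l, a paralogue of subunit 7A that joins complexes III and IV into supercomplexes, had 393, 354 and 338, close to Cox7a2 in count and below it per base (log2 ratio -0.51 ± 0.09, exact p = 0.25). Copies elsewhere cover 36.8% of its windows, and per window without a copy the ratio turned to 0.10. Cox7b2 and Cox8c, isoforms known from testis, had no row in the table.

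**Figure D3:**
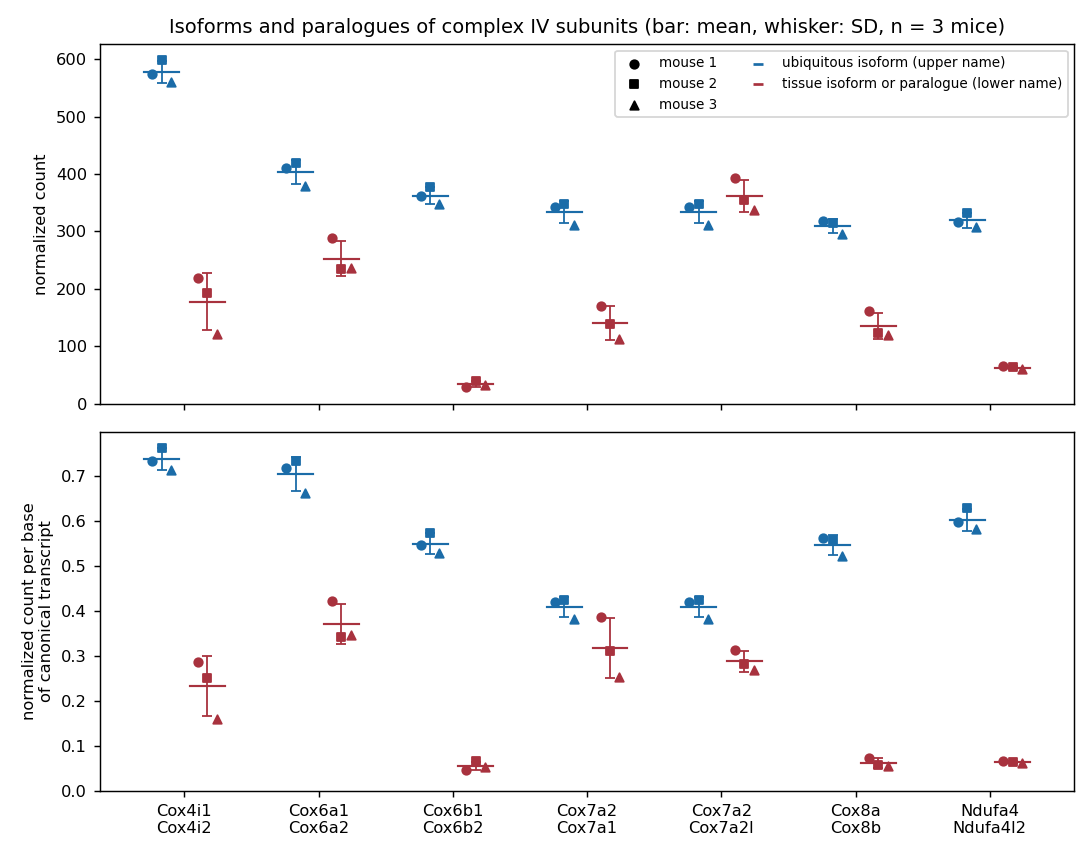
Normalized count (upper panel) and normalized count per base of the canonical transcript (lower panel) of each complex IV isoform or paralogue, in red, beside its widely used counterpart, in blue. Points are the 3 mice, bars the mean and whiskers the SD (n = 3). Per base the counterpart lies above the isoform in every mouse for all 7 pairs, while Cox7a1 and Cox7a2 come nearest, at 0.388 and 0.420 in mouse 1.

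The c subunit of the rotor ring is encoded by 3 genes, Atp5g1, Atp5g2 and Atp5g3 (now named Atp5mc1, Atp5mc2 and Atp5mc3), which differ in their import sequence and give the same mature protein. Atp5g3 had 589, 624 and 570 normalized counts, Atp5g1 had 292, 277 and 262, and Atp5g2 had 67, 69 and 75. Per base Atp5g3 was 6.22-fold (log2 ratio 2.64 ± 0.13) and Atp5g1 4.68-fold (2.23 ± 0.16) above Atp5g2 (SD, n = 3, exact sign-flip p = 0.25 for both). The closest stretch of 72 bases of Atp5g1 and Atp5g2 is shown because the proteins are identical over 78 residues in a row and the genes are not.
Atp5g1, positions 174 to 245, gene at chr11:95959678-95966496, minus strand: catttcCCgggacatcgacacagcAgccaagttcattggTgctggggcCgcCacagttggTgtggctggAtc
Atp5g2, positions 204 to 275, gene at chr15:102571299-102580787, minus strand: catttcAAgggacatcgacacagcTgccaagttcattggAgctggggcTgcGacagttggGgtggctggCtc

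These stretches differ at 8 of 72 bases, and the longest run shared by the transcripts is 21 bases. The low value of Atp5g2 goes with the highest share of copied windows of all 106 genes, 88.0%, against 77.6% for Atp5g1 and 0.872% for Atp5g3. Per window without a copy the log2 ratio of Atp5g3 to Atp5g2 turned to -0.45, and Atp5g1 reached 2.29, above the ceiling of 1. With the joined exon length the ratio of Atp5g3 was 4.38, and with the shortest CCDS transcript Atp5g1 was 2.82-fold above Atp5g2. The order of the 3 genes is therefore uncertain.

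Copies of this kind were common in the group, and what the copies are was not examined. Of all 14395 genes with a mean of at least 10, 5.07% had an exact copy elsewhere for more than 20% of their windows, and of the 105 genes of oxidative phosphorylation 13 did (12.4%). Beside those already named they were Ndufs5 (69.8% of windows copied, 72, 79 and 65 normalized counts), Uqcrb (43.3%), Ndufab1 (27.2%, 397, 429 and 393), Atp5h (26.3%, 389, 413 and 362), Ndufs3 (26.2%, 316, 312 and 271) and Ndufa12 (20.3%, 221, 236 and 186). Multi-mapping reads had been removed, so the values of these genes may leave out reads from copied windows. How many such reads were still counted was not tested. Atp5g1, at 2.29 per window without a copy, lies above what such windows alone could give under the ceiling near 1. Cox5b-ps, a row listed as protein-coding despite its name, had 7, 2 and 5 normalized counts and 47.9% of its windows copied. For Ndufb8 and Cox16, 68.6% and 88.0% of the transcript lies in exons of another gene on the same strand in the annotation used here, and reads that overlap several genes had not been counted.

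The assembly factors, which mature the complexes and are not part of them, were lower than the subunits. Their median was 0.116, 0.122 and 0.108 per base in mouse 1, 2 and 3, against 0.351, 0.350 and 0.344 for the 77 subunits, with no overlap. The log2 ratio was -1.60 ± 0.07 (SD, n = 3, exact sign-flip p = 0.25), a 3.02-fold lower level, and it kept its direction under every alternative run on it, from -1.95 to -1.01. None of the 21 reached 0.5 per base. By count the medians were nearer, at 238 for the assembly factors and 352 for the subunits. The transcripts of the assembly factors were longer, with a median of 2722 bases against 1101. The part of transcript length in this ratio was not tested.

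The highest assembly factors per base were Sdhaf4 (234, 231 and 186), Ndufaf8 (266, 218 and 218) and Ndufaf2 (211, 210 and 191), at 0.308, 0.293 and 0.287. The lowest were Cox16 (47, 52 and 46), Sdhaf3 (161, 128 and 137) and Cox20 (225, 202 and 215), at 0.0238, 0.0306 and 0.0438. The highest of the assembly factors thus stayed below the median of the subunits on this scale. The factors that deliver copper or heme to complex IV lay between these ends, with Cox11 at 0.175, Cox15 at 0.104, Cox10 at 0.0881 and Cox17 at 0.0788 per base, and Cox17 reached 0.655 on its shortest CCDS transcript. Cox14, which had 820, 631 and 587 normalized counts, had the highest count of the assembly factors, reached 0.908 per base on its shortest CCDS transcript, above the median of 0.450 of the subunits on that scale, and differed between mice by a coefficient of variation of 18.2%.

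The 42 partners outside the rule that have a row in the table, among them the assembly genes of complex III and the synthase and the electron carriers, had a median of 0.145 ± 0.00398 per base, between the assembly factors and the subunits. Cycs, the soluble carrier cytochrome c, had 167, 176 and 156 normalized counts. It was at 0.0526 per base, far below Cyc1 at 0.479.

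The mice differed little in these genes. Across all genes with a mean of at least 200, 8.00% had a coefficient of variation over 20% between the mice, and none of the 91 genes of oxidative phosphorylation at that level did. With a mean of at least 100 the share was 11.6% of all genes and 2 of 98 here, Cox4i2 and Cox7a1. Of the 77 subunits, 71 had a coefficient of variation under 10%, and the median of the 77 was 5.64% against 9.90% for all genes. Low variation was not particular to them among genes of at least 0.5 per base. There the median was 5.3% for all 545 genes and 5.1% for the 25 genes of oxidative phosphorylation. Under 0.5 per base it was 10.2% for all genes and 6.6% for the 80 here. Without mouse 2, Cox14 passed 20%.

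The small differences between mice had a common direction. Of all 14395 genes, 34.2% were lowest in mouse 3, and of the 105 genes of oxidative phosphorylation 86 were (81.9%). They were 36 of 37 subunits of complex I, all 4 of complex II, all 8 of complex III, all 11 of complex IV and 13 of 17 of complex V, but 9 of 21 assembly factors. In the lists most like them, 11 of 16 genes of fatty acid oxidation, 10 of 17 of the citric acid cycle and 29 of 42 partners were lowest in mouse 3, and 5 of 16 of glycolysis. Relative to the mean of mouse 1 and 2, the median log2 difference of mouse 3 was -0.14 for complex I, -0.11 for complex II, -0.17 for complex III, -0.13 for complex IV and -0.09 for complex V, against -0.01 for all genes.

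Mouse 3 was the library with the most reads, and genes close to the ceiling of reads per base were low in it throughout the table. Of the 545 genes of at least 0.5 per base, 75.2% were lowest in mouse 3, and all 25 genes of oxidative phosphorylation at that level were. Below 0.5 per base it was 32.6% of all genes and 61 of 80 here (76.2%). Among genes with a canonical transcript under 1000 bases it was 51.8% of all genes and 38 of 44 here, and among longer ones 32.9% and 48 of 61. The share was thus above that of all genes in each of these classes. Scaling by trimmed means over all genes, on the values already normalized, gave factors from 0.9946 to 1.005 for the libraries. The part of depth, of scaling, of duplicate removal and of transcript length in the low values of mouse 3 was not tested.

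The 5 subunits that were not lowest in mouse 3 were Ndufb8 (-0.05 on the same log2 scale), Atp5o (-0.02), Atp5md (0.09), Atp5g2 (0.14) and Atp5l (0.41), and Atp5g2 and Atp5l have mostly copied windows. Among the isoforms, Cox4i2 was -0.75 and Cox7a1 -0.46 on this scale, beyond any subunit.

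**Figure D4:**
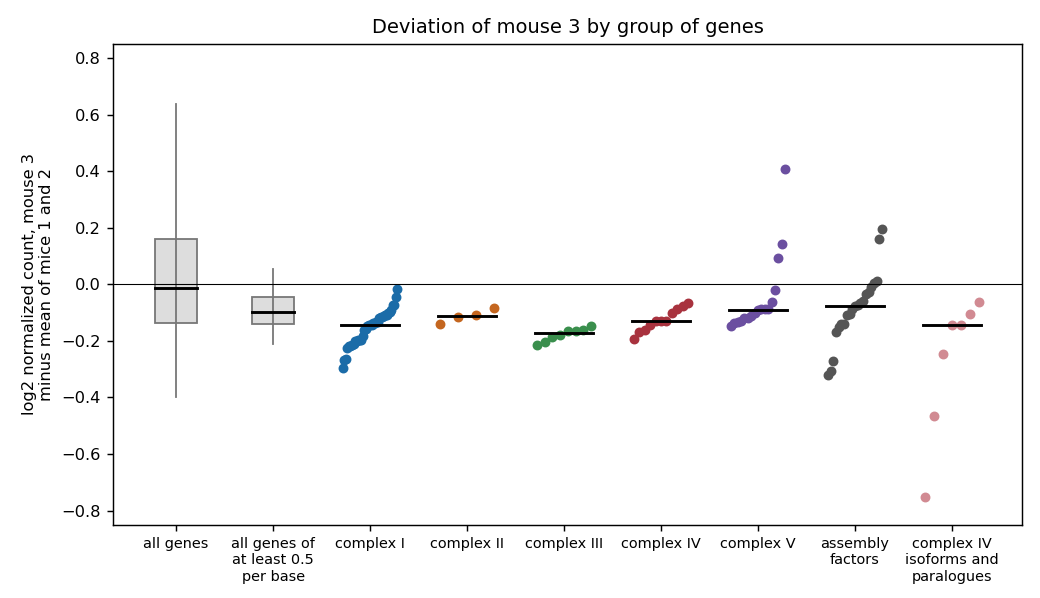
Difference between the log2 normalized count of mouse 3 and the mean of mouse 1 and 2 (vertical) for each gene, by complex and class. Boxes show the median and quartiles and their whiskers the percentiles 5 and 95 for all 14395 genes and for the 545 genes of at least 0.5 per base, points are genes and lines are medians. The medians of complexes I to V lie between -0.17 and -0.09, and that of all genes at -0.01.

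Set beside other pathways of energy metabolism, the subunits were compared by within-mouse ratios of medians per base. The 16 genes of mitochondrial fatty acid oxidation had medians of 0.285, 0.271 and 0.258 in mouse 1, 2 and 3, below the subunits in each (log2 ratio of the subunits 0.36 ± 0.06, SD, n = 3, exact sign-flip p = 0.25). With the joined exon length the ratio was 0.08 and the mice no longer shared a direction (exact p = 0.5). The 16 genes of glycolysis had 0.230, 0.232 and 0.228 (log2 ratio 0.60 ± 0.01, exact p = 0.25), and 5 of them have more than 20% of their windows copied. Per window without a copy the ratio was 0.04. The 17 genes of the citric acid cycle had 0.351, 0.352 and 0.352 and did not stand apart from the subunits (log2 ratio -0.02 ± 0.02, exact p = 0.25). The ratio to the citric acid cycle changed sign with the choice of length.

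All 17 listed regulators of mitochondrial gene expression were detected, with a median of 0.0856 ± 0.00490 per base. Nrf1, which binds promoters of many respiratory genes, had 754, 740 and 708 normalized counts. Gabpa, the ETS factor known as nuclear respiratory factor 2, had 1019, 997 and 1095, and Tfam, which packs and transcribes mitochondrial DNA, had 577, 595 and 519. The coactivators Ppargc1a (180, 192 and 224) and Ppargc1b (60, 73 and 84) were low for their length, at 0.0307 and 0.0185 per base. Of the estrogen-related receptors, Esrra had 760, 728 and 633 and 0.313 per base, and Esrrg had 56, 42 and 49 and 0.00926 per base. Lrpprc, which stabilizes mitochondrial transcripts, had 368, 400 and 393. Ppargc1a and Ppargc1b were highest in mouse 3, as were 31.0% of all genes, whereas Esrra, Nrf1 and Tfam were lowest in it like most subunits. Of the 17 regulators 4 were lowest in mouse 3, against 34.2% of all genes.

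Promoters of 300 bases, from 250 before to 50 after the start in the RefSeq annotation of GRCm38.p6, were found for 87 of the 106 genes and searched on both strands for exact letters of motifs. The NRF1 motif CGCATGCGC was present in promoters of 10 of the 87 genes (11.5%), in 4.06% of 10257 protein-coding genes of the table with a mean of at least 10, and in 1.75% of all promoters. The YY1 motif AAGATGGCG was in 10.3%, 3.44% and 1.40%, the GABPA motif ACTTCCGG in 10.3%, 8.88% and 3.89%, and the ERR motif TCAAGGTCA in 2.30%, 0.312% and 0.423%. The SP motif GGGGCGGGG was in 14.9%, 25.1% and 11.4%, the NFY motif CCAATCAG in 5.75%, 6.58% and 4.10%, and the TATA motif TATAAAAG in 1.15%, 1.13% and 1.70%. None of these motifs contains another. The shares are descriptions of letters in these windows and not of binding, and in this group they rest on 1 to 13 genes per motif.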

How the data were processed

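RNA of tagged ribosomes from 3 mice was measured. Per the labels and the methods of the study, reads were trimmed with Trimmomatic 0.39 and aligned with STAR 2.7.11a to mm39 (Ensembl release 109). Duplicates (Picard 3.1.1) and multi-mapping, ribosomal and mitochondrial reads were removed, and exonic reads on the correct strand were counted with featureCounts 2.0.4. The deposited values are scores, since the authors divided counts by DESeq2 1.36.0 size factors and rounded the result. No count model was therefore used, and depth was estimated from the worth of 1 read (0.977, 1.060 and 0.961 in mouse 1, 2 and 3). No column belongs to other samples.

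Lengths came from GENCODE M39, in which 17475 of 17583 identifiers (99.39%) were found. All windows of 72 bases were searched for exact copies in GRCm39. Log2 ratios were formed mouse by mouse, with a pseudocount of 0.5 for isoforms, and tested by exact sign-flip permutation. Python 3.11.15, numpy 2.4.6, pandas 2.3.3 and numba 0.67.0 were used, and the steps were tested on simulated data.

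The genes named were both genes of each isoform pair, the tissue isoforms, the subunits of complex II, the 3 highest and 3 lowest per base of each other complex and of the assembly factors, variable genes, genes with a mean under 10 or with many copied windows, the inhibitor and 10 partners and regulators. Other genes named were chosen after their values were seen. The genes, lists and tests were chosen with earlier results of these data known.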

Additional observations from a re-analysis of the deposited data

Results flagged for a closer look

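Rows of pseudogenes of these genes lay outside the symbol and biotype rule and were not part of the comparisons. Atp5pb-ps had 11, 8 and 8 normalized counts in mouse 1, 2 and 3 (mean 9), Uqcrh-ps1 had 7, 2 and 3 (mean 4) and Ndufs5-ps had 4, 4 and 2 (mean 3.33). They were singled out because their means lie above 3, the level that a count of 0 allows. The parent genes Atp5pb, Uqcrh and Ndufs5 had means of 622, 402 and 72.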

How the results depend on the processing

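Of the 17 ratios, 8 kept their direction under every alternative run on them and 9 reversed under at least 1. Of the 17 alternatives the filters on low values bear only on counts and the percentile, the pseudocounts only on isoform ratios and the mean of log2 values only on groups of genes, and 2 (the shortest CCDS transcript, and leaving out subunits with copied windows) were added after seeing the data. With the length of all annotated exons the log2 ratio reversed to 0.83 for complex III and -0.15 for complex IV against complex I, 2.03 for Cox7a1 against Cox7a2 and 0.58 for Ndufa4l2 against Ndufa4, and the median percentile of the subunits moved to 71.46. Per window without a copy it reversed to -0.11 for complex II, 0.10 for Cox7a2l against Cox7a2, -0.45 for Atp5mc3 against Atp5mc2 and 0.33 for subunits against the citric acid cycle, and the percentile was 92.78. With the mean of log2 values it reversed to 0.13 for complex III, -0.07 for complex V and 0.04 against the citric acid cycle. With the shortest CCDS transcript it reversed to -0.40 for complex II and 0.16 against the citric acid cycle, and the percentile was 91.43. Without subunits with copied windows it reversed to -0.36 for complex II and -0.22 for complex V. The percentile was 88.33 with a minimum of 10 in every mouse and 90.78 with no minimum. Variable genes numbered 2 with a minimum mean of 100, 3 with none (Cox4i2, Cox7a1 and Cox5b-ps), and 0 to 1 when each mouse was left out. The causes were not tested, beyond the lengths themselves. Leaving out a mouse reversed no ratio. No paired analysis was possible because the 3 mice form a single group. With 3 mice no ratio could reach a p of 0.05, and duplicate removal compresses the levels of short, abundant transcripts.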
